A study of Mus musculus with 3 samples.

Results

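GLI3 binding was examined at 10 genes of the WNT pathway in E10.5 mouse forelimb buds. They were the ligand genes Wnt3, Wnt5a and Wnt6, the response genes Axin2, Lef1 and Tcf7, the inhibitor genes Dkk1, Sfrp1 and Sfrp2, and the receptor gene Ror2. Every listed peak whose summit lay within 100 kb of an annotated transcription start site (TSS) of a member was kept, which gave 49 of the 17149 listed peaks. The question was where GLI3, which carries the Hedgehog (HH) signal to its target genes as activator or repressor, was bound around these genes, and how the ligand genes compared with the response and inhibitor genes. From blots of nuclear protein, the study proposes that its GLI3 binding regions are likely those of the repressor form alone. The peak list itself cannot tell the forms apart.

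The peaks came from ChIP-seq, in which an antibody recovers a protein with the DNA it is attached to and the DNA is sequenced. Both ChIP replicates and the single input were forelimb buds at E10.5 (32 to 35 somites) on a mixed strain background, with 2 litters of limb buds in each reaction. The endogenous Gli3 gene carried an N-terminal FLAG tag, although the genotype label of all 3 libraries reads wild type. There was no other condition, no mutant and no library from untagged embryos, and limb buds of many embryos were pooled. The authors' data came as 1 peak list, which was treated as a joint call on both replicates and gives no values per replicate. No value below therefore carries a replicate error, and none could be set against the spread between embryos. The study's methods state a minimum number of reads per sample, but the list gives no totals for single libraries. In whole limb buds, binding in few cells and weak binding in many cells cannot be told apart. The tissue could not be checked against marker genes, because the list holds no expression values.

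WNT ligands are secreted proteins that bind receptors on nearby cells. In the canonical branch, binding stops the destruction complex, to which the AXIN2 scaffold belongs, from removing beta-catenin, which then acts with TCF/LEF factors in the nucleus. Secreted DKK and SFRP proteins limit this signalling at the cell surface. WNT5A acts largely through another branch that does not need beta-catenin, with ROR2 among its receptors. Outgrowth of the limb and the formation of the ectodermal ridge at the limb tip both need WNT signals.

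Short sequences at these peaks were read from the mm10 genome (RefSeq assembly GRCm38.p6) to show which protein contact words the bound DNA held. A pair of words was searched on both strands in a window of 250 bp to either side of each summit. The first was the GLI consensus GACCACCCA, with at most 1 mismatch allowed. The other was the TCF/LEF core CTTTGAT, with none allowed. No window held both, so no matches of the words overlapped. A match is a description of the DNA and was not tested as a binding site.

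The TCF/LEF core was found 11 times, in the windows of 10 of the 49 peaks. The matches at response genes and Ror2 are printed with 10 bases to either side, because they account for 9 of those 10 peaks. Capitals mark the core, and each line is read 5′ to 3′ on the strand that holds it.
Axin2 at chr11:108920417-108920443, plus strand: gccggctgcgCTTTGATaaggtcctgg
Axin2 at chr11:108922406-108922432, minus strand: aacttagaggCTTTGATcttcaaactt
Axin2 at chr11:108923062-108923088, plus strand: tactttcttgCTTTGATgttgggtaga
Axin2 at chr11:108947360-108947386, minus strand: tcgccagactCTTTGATaactttcgga
Lef1 at chr3:131105921-131105947, plus strand: tccccaaactCTTTGATctttctccct
Lef1 at chr3:131137274-131137300, plus strand: gcggccttggCTTTGATctcttcaaag
Lef1 at chr3:131196790-131196816, plus strand: ctctctctgtCTTTGATttagacacct
Lef1 at chr3:131196831-131196857, plus strand: gcctctgggtCTTTGATtaagatcagg
Ror2 at chr13:53205303-53205329, plus strand: tccagtctgtCTTTGATcttgaaagca
Ror2 at chr13:53321066-53321092, minus strand: ggtggggcagCTTTGATttgaaacttt

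The GLI word was found at 4 of the 49 peaks, each time with 1 mismatch, and the exact consensus at 0. All 4 are printed in the same way, since they are the closest that any member peak came to the consensus of the immunoprecipitated factor.
Wnt5a at chr14:28501568-28501596, plus strand: ttcccagaatGACAACCCAgaccctgctt
Tcf7 at chr11:52286836-52286864, minus strand: tcgagctggaGAGCACCCAtttattagtg
Sfrp1 at chr8:23384093-23384121, minus strand: gaggagcaggGACCCCCCAtttcactcaa
Ror2 at chr13:53309990-53310018, minus strand: tttcctgccaGAGCACCCAtctctcttcc

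Each listed peak has a false discovery rate (FDR) from the authors' peak caller, and the list runs to an FDR of 1. Peaks with an FDR under 0.05 are called GLI3 peaks here, after the study's own threshold, and the rest are called listed peaks that did not pass. The strength of a peak is its maximum log2 fold enrichment, the largest value that ChIP against input reached in the windows it covers. Of the 49 peaks, 22 passed (44.9%, 95% Wilson interval 31.9 to 58.7), and of all listed peaks 42.5% passed. The median log2 fold enrichment was 2.24 (95% interval 2.17 to 2.52) at the members and 2.23 over the whole list. Both values were close to those of the list as a whole. Intervals cover only the counting error over peaks, and peaks of the same gene share their neighbourhood. Because the replicates are merged and the members were chosen with earlier results of these data known, the contrasts below are descriptions and were not tested.

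Over the member peaks, the log2 fold enrichment never rose and the FDR never fell as the list's rank number rose. Passing was therefore a cut on enrichment, and the lack of overlap between peaks that passed and those that did not is no separate finding. The lowest log2 fold enrichment of any peak that passed was 2.314182, and the highest of those that did not was 2.313877. Just inside the cut among the members was a peak of Wnt5a (log2 2.32, FDR 0.0374), and just outside was a peak of Axin2 (log2 2.29, FDR 0.0704).

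A listed peak was found at 9 of the 10 genes, beside 71.9% of all 21951 protein-coding genes. A GLI3 peak was found at 6 of the 10, beside 53.9% of all protein-coding genes. The median protein-coding gene had 2 listed peaks and 1 GLI3 peak within this distance. The members ranged from 0 peaks at Dkk1 to 15 at Wnt5a. By their highest peak the genes stood in the order Ror2 (log2 3.95), Axin2 (3.71), Wnt3 (3.17), Lef1 (3.11), Wnt5a (3.06), Sfrp1 (2.91), Sfrp2 (2.24), then Tcf7 and Wnt6 (2.17 each). Without values per replicate, neighbours in this order could not be told apart.

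**Figure D1:**
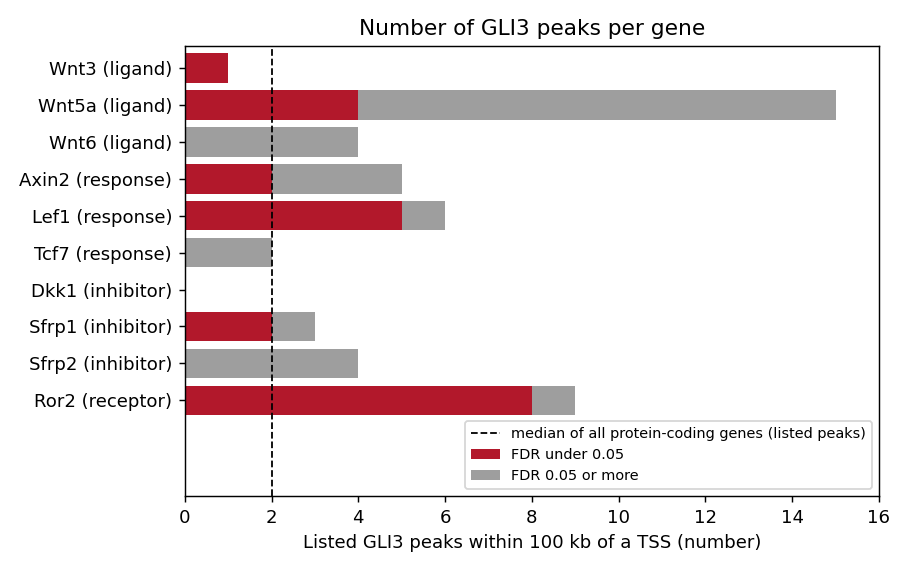
Horizontal bars give the number of listed peaks within 100 kb of a TSS of each gene, in red for an FDR under 0.05 and in grey for the rest, and the dashed line marks the median of 2 listed peaks over all protein-coding genes. Wnt5a has the longest bar with 15 peaks, of which 11 did not pass, Ror2 has 8 of 9 passing, and Dkk1 has none.

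Wnt5a had more listed peaks than any other member. The gene encodes a ligand of the mesenchyme and ectoderm that limb outgrowth needs, and lies on the plus strand at chr14:28504750-28527448. Its 15 listed peaks were matched or exceeded in number by 0.743% of protein-coding genes. Its 4 GLI3 peaks were matched or exceeded by 9.84%, so the high count rested mostly on peaks that did not pass. Most of the listed peaks formed clusters, with 8 inside the gene and within 2 kb of one of its 6 annotated TSSs, and 5 in introns of the upstream gene Erc2, which encodes a presynaptic protein.

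The highest peak of Wnt5a lay at chr14:28542150-28542699, in intergenic DNA 30.9 kb downstream of the nearest TSS of the gene (rank 1804, log2 3.06). Next was a peak in an intron, 946 bp upstream of a TSS (rank 2125, log2 2.98). Another, at chr14:28470300-28470499, was in an Erc2 intron 34.4 kb upstream (rank 3592, log2 2.70). The last GLI3 peak of the gene was intronic and 757 bp downstream of a TSS (rank 7172, log2 2.32). Thus the GLI3 peaks were spread over both flanks as well as the gene itself. The other 11 ran from log2 2.05 to 2.24, and included the peak in the 5′ UTR, 222 bp downstream of the first TSS (rank 9996, log2 2.14). Only 1 of the 15 windows held the GLI word, at a peak 3.34 kb upstream that did not pass, and 1 held the TCF/LEF core. The 121 bp around the highest summit are shown because that peak is the strongest whose nearest TSS is that of a ligand gene among the members, and they hold neither word.
Wnt5a at chr14:28542262-28542382, plus strand: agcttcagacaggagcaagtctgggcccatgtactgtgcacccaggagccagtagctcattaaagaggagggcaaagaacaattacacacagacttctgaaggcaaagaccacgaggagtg

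Wnt3 had a single listed peak, which lay at the start of another gene. Wnt3 encodes a ligand of the ectoderm that acts in the induction of the limb ridge, and lies on the plus strand at chr11:103774150-103817957. The peak, at chr11:103697700-103697999, ranked 1444 with a log2 fold enrichment of 3.17 and was the highest of the 3 ligand genes among the members. It lay 76.3 kb upstream of Wnt3 but only 36 bp from a TSS of Gosr2, in the 5′ UTR of that gene, which encodes a Golgi transport protein. The ligand gene Wnt9b also lay within 100 kb of it. By nearest TSS the peak belonged to Gosr2, and Wnt3 then had 0 peaks.

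Wnt6 had 4 listed peaks and none passed. It encodes another ectodermal ligand, on the plus strand at chr1:74771892-74785322. The log2 fold enrichment ran from 1.95 to 2.17, below the median of the whole list. The peak nearest to the gene lay at its promoter, 235 bp upstream of the TSS, and was the weakest of the 4 (rank 13813, log2 1.95, FDR 0.727). A pair of peaks 24.1 and 25.7 kb downstream lay nearer to the TSS of Wnt10a, the neighbouring ligand gene, at 13184 and 14739 bp. The remaining peak, 56.3 kb upstream, was in an intron of Cyp27a1, a gene of sterol metabolism. All 4 peaks were also within 100 kb of Wnt10a.

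**Figure D2:**
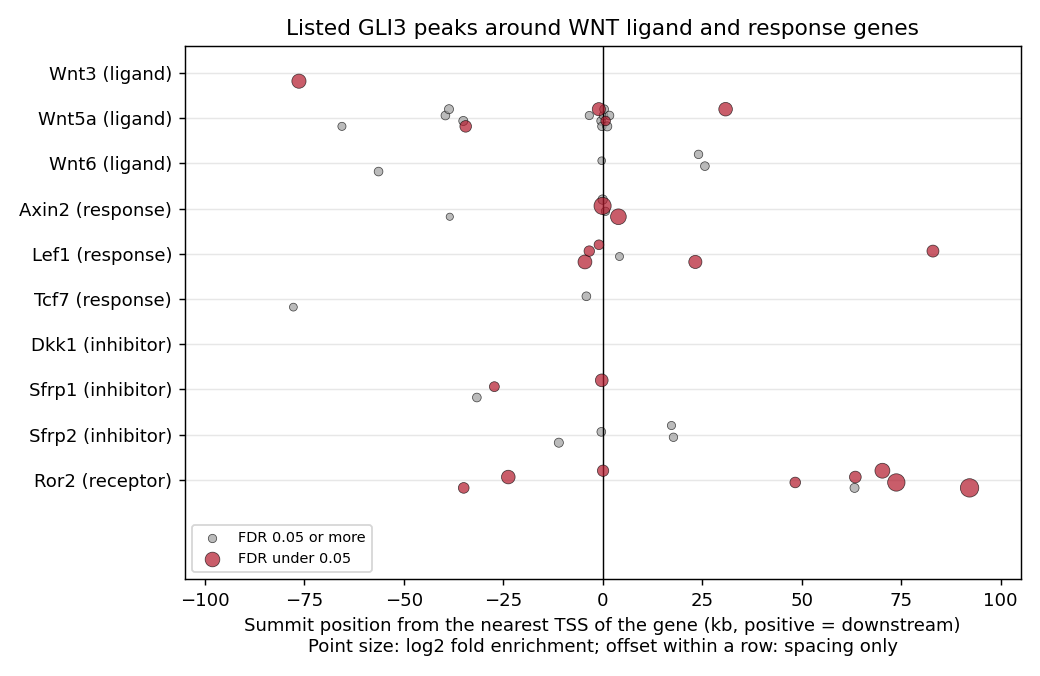
Each point is a listed peak, placed by the distance in kb of its summit from the nearest TSS of the gene (negative is upstream), with point size rising with log2 fold enrichment and red marking an FDR under 0.05. Peaks of Wnt5a cluster around its TSSs and 34.4 to 39.5 kb upstream, those of Axin2 lie mostly at the gene, and the highest peaks of Ror2 lie 70.3 to 92.2 kb downstream of its nearest TSS, inside the gene.

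Axin2 had the highest peak of the response genes, directly at its start. Axin2 encodes a scaffold of the beta-catenin destruction complex and is itself switched on by canonical WNT signalling, which makes it a common readout of the pathway. It lies on the plus strand at chr11:108920349-108950783. The summit of the peak at chr11:108920150-108921999 was 7 bp upstream of the first TSS (rank 483, log2 3.71, −log10 Poisson p 53.6). At 1850 bp it was the longest of the 49 peaks, which had a median length of 300 bp. A second GLI3 peak, of log2 3.44 (rank 840), was intronic at chr11:108947400-108947999, 3.97 kb downstream of the TSS of another transcript.

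The other 3 peaks of Axin2 did not pass. They were in the 5′ UTR of a later transcript (rank 7617, log2 2.29), in an intron 709 bp downstream of a TSS (rank 11086, log2 2.09), and 38.4 kb upstream (rank 15875, log2 1.85), the weakest peak of any member. Each of the 4 peaks at the gene held 1 TCF/LEF core, 62 to 219 bp from the summit, and the upstream peak held none. None of the 5 held the GLI word. Thus the core stood at peaks that passed and at peaks that did not.

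Lef1 was the response gene with the most GLI3 peaks. Lef1 encodes a nuclear partner of beta-catenin, and lies on the plus strand at chr3:131110471-131224356. Of its 6 listed peaks 5 passed, a number of GLI3 peaks that 5.69% of protein-coding genes reached. Their log2 fold enrichments were 3.11, 2.98, 2.77, 2.50 and 2.36, and the peak that did not pass had 2.02. The highest peak lay at chr3:131105850-131106449, 4.44 kb upstream of the first TSS (rank 1605), and another was 3.35 kb upstream. A further peak was 920 bp upstream of an internal TSS and was the only one of the 6 at a promoter. Thus the strongest binding near the start of Lef1 was upstream of its promoter.

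Inside Lef1, GLI3 peaks lay in introns 23.3 kb (rank 2121) and 83.0 kb (rank 3178) downstream of the nearest Lef1 TSS. The latter, at chr3:131196600-131196949, was closer to the TSS of Hadh, a gene of fatty acid oxidation, at 75177 bp. The TCF/LEF core was found at 3 of the 6 peaks, and none held the GLI word. Only this intronic peak, of all member peaks, held the core more than once in its window. The nearer match was 3 bp from the summit. The 121 bp around it are shown for that reason, with both cores in capitals.
Lef1 at chr3:131196787-131196907, plus strand: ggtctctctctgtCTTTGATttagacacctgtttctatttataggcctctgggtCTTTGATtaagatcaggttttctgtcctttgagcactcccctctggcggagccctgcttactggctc

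Tcf7, which encodes another of the TCF/LEF factors, had 2 listed peaks and none passed. The gene lies on the minus strand at chr11:52252371-52283014. The nearer peak was 4.08 kb upstream of its TSS (rank 9382, log2 2.17) and held a GLI word 242 bp from the summit. The farther, 77.7 kb upstream (rank 12897, log2 1.99), lay 163 bp from a TSS of Vdac1, which encodes a channel of the mitochondrial outer membrane. Having 2 listed peaks or more was common, with 55.2% of protein-coding genes at that number.

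The inhibitor genes differed from each other. Dkk1, which encodes a secreted protein that blocks the LRP co-receptors of WNT, had 0 listed peaks. The nearest listed peak to Dkk1 (chr19:30545863-30549665, minus strand) was 293 kb away (log2 1.94, FDR 0.727), and the nearest GLI3 peak was 453 kb away. Since the list ends at a minimum enrichment, binding below that level could not be seen.

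Sfrp1 had 3 listed peaks, all upstream, and 2 passed. It encodes a secreted protein that binds WNT ligands, and lies on the plus strand at chr8:23411502-23449632. The higher peak was at the promoter, chr8:23411200-23411949, with its summit 220 bp upstream of the TSS (rank 2427, log2 2.91). The second was 27.2 kb upstream (rank 6312, log2 2.39) and held a GLI word 195 bp from the summit. The last, 31.6 kb upstream, had log2 2.17 and did not pass.

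Sfrp2, a related secreted inhibitor on the plus strand at chr3:83766321-83774316, had 4 listed peaks and none passed. Their log2 fold enrichments were 2.24, 2.17, 2.11 and 2.06, of which only the first lay above the 2.23 of the whole list. They lay 11.0 kb upstream, at the promoter 324 bp upstream, and at 17.8 and 17.3 kb downstream, the last pair within the noncoding gene Gm26771. No window of Sfrp2 held either word. Of the inhibitor genes, a GLI3 peak was therefore found only at Sfrp1.

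Ror2 had the highest peaks and the most GLI3 peaks of the 10 genes. It encodes a receptor tyrosine kinase-like protein that binds WNT5A, and lies on the minus strand at chr13:53109312-53286124. Of its 9 listed peaks 8 passed (88.9%, Wilson interval 56.5 to 98.0). Only 1.13% of protein-coding genes had as many GLI3 peaks, and 5.91% as many listed peaks. The gene is 176813 bp long, and 7 of the 9 peaks were inside it. The reach of 100 kb was set by its 3 annotated TSSs and not by its length, and the part of gene length in these counts was not tested.

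The highest peak of all members was in an intron of Ror2 at chr13:53183100-53183699, 92.2 kb downstream of the nearest TSS (rank 279, log2 3.95, −log10 Poisson p 82.5). That TSS is internal to the gene. Counted from the 5′ end of each gene alone, this peak fell beyond 100 kb, which left 48 listed peaks and 21 GLI3 peaks at the members. A second intronic peak, at chr13:53201500-53202049 and 73.8 kb downstream, ranked 442 (log2 3.76). Another intronic peak, 70.3 kb downstream, ranked 1127 (log2 3.30). The strongest binding was thus deep in the gene and not at its start, where the peak in the 5′ UTR, 112 bp downstream of the TSS, had log2 2.65 (rank 3893).

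Upstream of Ror2, GLI3 peaks lay at 23.7 kb (rank 1786, log2 3.07) and 34.9 kb (rank 4788, log2 2.54). The remaining intronic peaks had log2 2.73, 2.52 and 2.23, and only the last did not pass. The GLI word was found once, 147 bp from the summit of the peak 23.7 kb upstream. The TCF/LEF core was found at 2 peaks, 6 bp and 17 bp from their summits. The 121 bp around the highest summit of any member hold neither word. They are shown beside those of the peak that ranked 1127, in which the core in capitals is almost at the summit.
Ror2 at chr13:53183362-53183482, plus strand: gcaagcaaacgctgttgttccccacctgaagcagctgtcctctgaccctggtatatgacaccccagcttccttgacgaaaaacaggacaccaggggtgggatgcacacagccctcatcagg
Ror2 at chr13:53205262-53205382, plus strand: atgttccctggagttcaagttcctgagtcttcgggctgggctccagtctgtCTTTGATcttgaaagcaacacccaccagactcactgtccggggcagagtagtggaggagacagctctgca

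**Figure D3:**
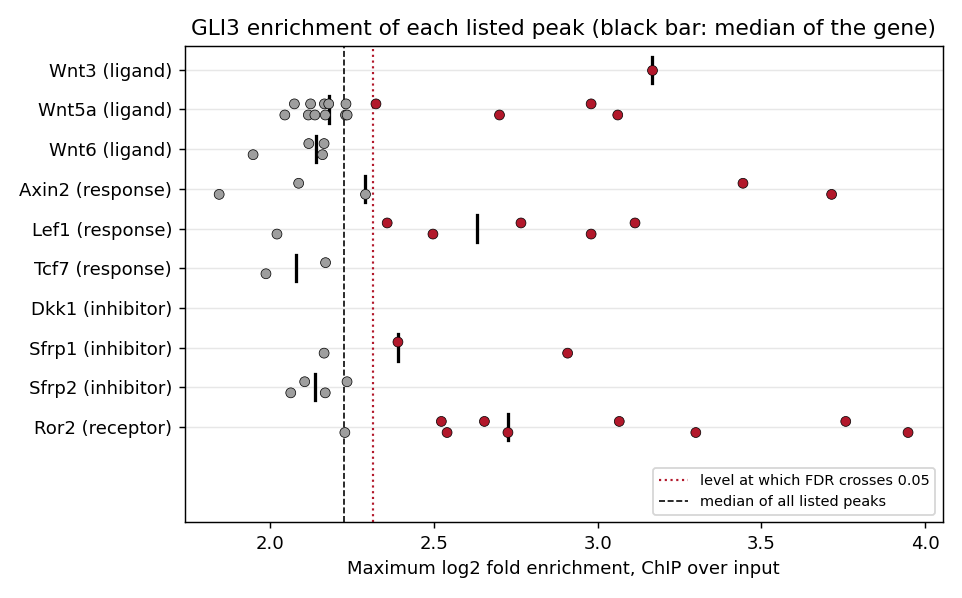
Each point is a listed peak, placed by its maximum log2 fold enrichment of ChIP over input, with red marking an FDR under 0.05 and a black bar at the median of each gene. The dotted line is the level at which the FDR crosses 0.05 and the dashed line is the median of all 17149 listed peaks (2.23). The peaks of Wnt6, Tcf7 and Sfrp2 all lie left of the dotted line, and 8 of the 9 Ror2 peaks lie right of it.

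The ligand genes were then set beside the response and inhibitor genes. Each side had 20 listed peaks, from 3 ligand genes and from 6 response and inhibitor genes. The median number of listed peaks per gene was 4 for ligand genes (1 to 15) and 3.5 for the others (0 to 6). This order turned within 50 kb of a TSS (3 and 3.5), within 20 kb (1 and 2.5), by nearest gene (1 and 3.5), and without Wnt5a (2.5 and 3.5). Of the ligand peaks 5 passed (25%, interval 11.2 to 46.9), and of the response and inhibitor peaks 9 passed (45.0%, interval 25.8 to 65.8), around the 42.5% of the whole list. At an FDR under 0.2 the shares were 65.0% and 70.0%, both above the 56.9% of the whole list. The median log2 fold enrichment was 2.17 (2.12 to 2.24) for ligand peaks and 2.26 (2.11 to 2.77) for the others. Among GLI3 peaks alone it was 2.98 for the 5 ligand peaks and 2.91 for the 9 others. These few peaks were themselves selected by a cut on enrichment, so no order is read from these values. The intervals of the shares and of the medians over all listed peaks overlapped, and the difference between ligand genes and the others was not tested.

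Within the second side, the response genes had 7 of 13 peaks passing (53.8%, interval 29.1 to 76.8) and a median log2 of 2.36. The inhibitor genes had 2 of 7 passing (28.6%, interval 8.22 to 64.1) and a median of 2.17. Single genes carried much of each number. Wnt5a gave 15 of the 20 ligand peaks, and without it 1 of 5 ligand peaks passed. Lef1 gave 5 of the 7 GLI3 peaks of the response genes. Without Ror2, 14 of 40 member peaks passed (35.0%, interval 22.1 to 50.5), and without Wnt5a 18 of 34 did (52.9%, interval 36.7 to 68.5).

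Most member peaks lay outside promoters. A promoter peak overlapped the window from 2 kb before to 1 kb after a TSS of a protein-coding transcript. Of the 49 peaks 15 were promoter peaks (30.6%, interval 19.5 to 44.5), beside 49.2% of all listed peaks. Of these, 13 were at the promoter of the member itself and 2 at those of Gosr2 and Vdac1. The share was 35.0% on the ligand side and 35.0% on the response and inhibitor side. For 38 of the 49 peaks, the member was the protein-coding gene with the nearest TSS. The summits of 22 lay inside the member gene, 16 were within 2 kb of a member TSS and 24 were beyond 20 kb. Thus listed peaks around these genes were both at their starts and far from them. The median distance to a member TSS was 25.5 kb for the peaks that passed and 11.0 kb for those that did not. The difference in promoter share from the list was not tested.

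The GLI word was found at 4 of the 49 peaks (8.16%, interval 3.22 to 19.2), beside 17.9% of the 17144 listed peaks on placed chromosomes. Windows moved 2 kb to either side of the member summits held it in 10 of 98 cases (10.2%, interval 5.64 to 17.8). Because member peaks cluster, 12 of these moved windows overlapped a listed peak or the window around its summit, and of the other 86 the word was in 10 (11.6%, interval 6.44 to 20.1). No match was within 50 bp of a summit. Of the 22 GLI3 peaks 2 held it, at Sfrp1 and Ror2. The interval of the member share takes in the shares of the moved windows and of the whole list, and none of these differences was tested. The exact consensus was found at 0 member peaks, which with 49 peaks leaves an upper Wilson bound of 7.27%, and at 2.17% of the whole list.

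The TCF/LEF core was found at 10 of the 49 peaks (20.4%, interval 11.5 to 33.6), beside 6.66% of all listed peaks on placed chromosomes. In the windows moved 2 kb it was found in 9 of 98 (9.18%, interval 4.91 to 16.5), and in 6 of the 86 that were clear of every listed peak (6.98%, interval 3.24 to 14.4). Some moved windows of Axin2 fell on its other peaks, which hold the core themselves. Over the whole list the share differed by position, with the core in 9.72% of distal peaks and 3.50% of promoter peaks. Among member peaks the share was 20.6% in distal peaks and 20% in promoter peaks. The median GC content of the windows was 52.3% at the members and 55.9% over the list. The part of base composition was not tested.

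By role, the core was found at 7 of the 13 peaks of response genes (53.8%, interval 29.1 to 76.8), at 2 of the 9 peaks of Ror2, at 1 of the 20 ligand peaks (5.0%, interval 0.888 to 23.6) and at 0 of the 7 inhibitor peaks, for which the upper bound was 35.4%. All 7 at response genes belonged to Axin2 and Lef1. Peaks of the same gene are not separate observations of a gene class. No member peak held both words.

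**Figure D4:**
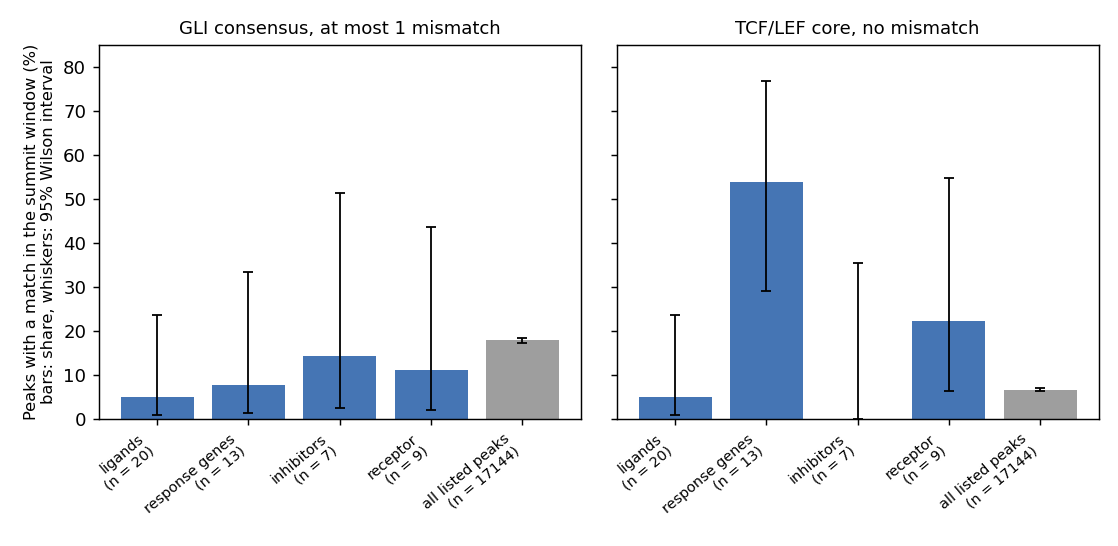
Bars give the percent of peaks with a match within 250 bp of the summit, on the left for the GLI consensus with at most 1 mismatch and on the right for the TCF/LEF core, with 95% Wilson intervals as whiskers, for ligand genes, response genes, inhibitor genes, the receptor gene Ror2 and, in grey, all listed peaks on placed chromosomes. The response genes stand at 53.8% for the TCF/LEF core and the whole list at 6.66%, and for the GLI word every whisker of the members reaches the 17.9% of the whole list.

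To place the 10 genes in their pathway, 87 other WNT pathway genes were examined in the same way. A listed peak was found at 78 (89.7%) and a GLI3 peak at 58 (66.7%), above the 71.9% and 53.9% of all protein-coding genes, a comparison that was not tested. Genes of the list that are neighbours share peaks and are not independent. GLI3 peaks were found at 10 of the 16 other ligand genes and 9 of the 15 other receptor genes, at 9 of 15 secreted or surface inhibitors, at 4 of 9 potentiators such as the R-spondins, at 13 of 15 intracellular transducers, at both other TCF/LEF genes, at 6 of 7 feedback or response genes and at 5 of 8 planar polarity genes.

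Among the other ligand genes, Wnt1 and Wnt10b shared the highest peak (rank 1118, log2 3.30), and Wnt2b followed (rank 1306, log2 3.21). These were close to the 3.17 and 3.06 of Wnt3 and Wnt5a. Among receptors, the Frizzled genes Fzd2 (log2 3.80) and Fzd10 (3.68) and the co-receptor gene Lrp5 (3.65) led, all below the 3.95 of Ror2. That Ror2 peak was not within 100 kb of the gene's 5′ end, and the next Ror2 peak had 3.76, below Fzd2. Among inhibitors, Frzb (3.66), which encodes another secreted Frizzled-related protein, Kremen1 (3.57), a partner of DKK1, and Znrf3 (3.47), which removes Frizzled receptors, had higher peaks than Sfrp1. Beside Dkk1 with no listed peak, 13 of the 15 other inhibitor genes of the list had at least 1.

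The highest peaks of the wider list lay 40.4 kb from a TSS of Tcf7l1 (rank 92, log2 4.44), a TCF/LEF gene that acts largely as a repressor, and 81.7, 60 and 27.1 kb from those of the transducers Apc (log2 4.25), Gsk3a (4.22) and Csnk1a1 (3.99), whose products mark beta-catenin for removal. At Apc and Gsk3a a TSS of another protein-coding gene was nearer to the peak, as it was for the highest peaks named here for Wnt1, Wnt10b, Rspo4, Lgr4, Celsr3 and Celsr2, so these peaks need not belong to the WNT gene. Tcf7l2, the other TCF/LEF gene, had 15 listed peaks and a highest log2 of 3.47. Both had more GLI3 peaks than Tcf7, with 5 at Tcf7l1, 6 at Tcf7l2 and 0 at Tcf7. Of the feedback and response genes, Nkd2 (3.66), Ccnd1 (3.65) and Nkd1 (3.65) stood just below the 3.71 of Axin2. Potentiators were led by Rspo1 (3.86), Rspo4 (3.27) and Lgr4 (2.70), and planar polarity genes by Prickle1 (2.87), Celsr3 (2.71) and Celsr2 (2.65).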

How the data were processed

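ChIP-seq of FLAG-tagged GLI3 was carried out by the authors on 2 ChIP replicates and 1 input of E10.5 forelimb buds. Reads were aligned with Bowtie2 2.2.5 to mm10 per the submitters' processing notes, after 15 PCR cycles per the labels. Peaks were called by the authors with CisGenome. The deposited file is 1 peak list attached to ChIP replicate 1. The study's methods name both replicates for peak calling, so it was treated as a joint call, which the list does not state. Its 7282 peaks at an FDR under 0.05 equal in number the GLI3 binding regions that the study reports from 2 replicates. For each peak the deposited list gives the maximum log2 fold enrichment over input, an FDR (a q-value) from the authors' caller, the −log10 of its lowest Poisson p-value, which stops at 100, and the authors' T score, which sets the rank. No column of the authors' own comparisons between conditions was present.

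Summits were assigned to TSSs of every GENCODE M21 transcript of a gene (comprehensive set) in Python 3.11.15 with pandas 2.3.3, numpy 2.4.6 and scipy 1.17.1. Peak ends were checked against GRCm38.p6, with 0 beyond a chromosome end, and motif searches left out the 5 peaks that lie on unplaced sequence. Shares have 95% Wilson intervals and medians have intervals from binomial order statistics. The assignment, scanning and intervals were tested on simulated data with planted answers. The members, the wider WNT list and the motifs were chosen with earlier results of these data known. By rule the text names the 10 members, up to 3 genes with the highest peaks in each role of the wider list, list genes that share a member peak, and genes nearer to a member's highest-ranked peak. Erc2, Cyp27a1, Hadh, Vdac1 and Gm26771 are named outside it, as are the genes nearest to peaks beyond 100 kb, and were chosen after their values were seen. Moved windows clear of every listed peak were added after seeing the data. Alternatives changed the distance, TSS set, peak position, FDR threshold, promoter window and motifs.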

Additional observations from a re-analysis of the deposited data

How the results depend on the processing

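Over 12 results, 54 of 70 alternatives left counts and medians per gene within 1.5 times of their value, or left shares and median enrichments inside their interval. The order of ligand against response and inhibitor genes did turn under some of them. Within 20 kb of a TSS there were 25 listed peaks, 9 of them GLI3 peaks, and medians of 1 listed peak per ligand gene and 2.5 per response or inhibitor gene, as fewer peaks are counted by construction. Counting peaks only for the nearest gene gave medians of 1 and 3.5, and 50 kb gave 3 and 3.5, whereas 200 kb kept the order at 6 and 4. At an FDR under 0.2, 36 member peaks passed, with 65.0% of ligand and 70.0% of response and inhibitor peaks, beside 56.9% of the whole list. With GLI3 peaks only, the median per gene was 1 on both sides and the median log2 was 2.98 for ligand and 2.91 for response and inhibitor peaks. Chosen after seeing the data, leaving out Ror2 gave 14 GLI3 peaks, leaving out Wnt5a gave a ligand median of 2.5 against 3.5, and the GENCODE basic set, run for 4 results, gave 48 listed peaks, 21 GLI3 peaks and the same medians per gene. Planned settings with the 5′ end of each gene only, or protein-coding transcripts only, also gave 48 and 21. With the 5′ end only, the peak lost was the highest of all members, in Ror2. The GLI word was at 0% of member peaks as the exact consensus and at 0% within 100 bp of the summit, where the whole list had 9.43%. The TCF/LEF core was at 12.2% of member peaks within 100 bp of the summit and at 16.3% over the whole peak, beside 3.0% and 4.35% of the list. The 5-base core CTTTG was at 83.7% of member peaks and 69.8% of the list, so that shorter word tells little apart. With Ror2 added to the response and inhibitor genes, 58.6% of their peaks passed and their median log2 was 2.50, farther from the ligand values, which this choice does not touch. No paired analysis was possible because the replicates are merged into 1 list, and for the same reason no replicate could be left out. The list ends at a minimum enrichment, which limits what the absence of a peak can show.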

Other observations

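Between 100 and 200 kb from a TSS of a member there were 14 further listed peaks, of which 4 were GLI3 peaks. The highest, at rank 551 with a log2 fold enrichment of 3.65, was 154 kb upstream of Sfrp1 and stronger than any peak of Sfrp1 within 100 kb, although Golga7 was the gene of the nearest TSS. A peak of log2 2.92 (rank 2364) lay 184 kb downstream of Tcf7, nearest to Ppp2ca, and the closest GLI3 peak to Wnt6 (log2 2.44, rank 5866) was 184 kb upstream, nearest to Zfp142. The fourth, of log2 2.55, was inside Ror2 and 112 kb downstream of its TSS. Of these 14 peaks, 5 were counted for Ror2, including 2 that lay nearest to Msx2, a homeobox gene of the limb. Dkk1, Sfrp2 and Axin2 had 0 peaks in this range.

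The Poisson p-value ordered some member peaks otherwise than the list's rank, which follows the authors' T score. The peak 38.4 kb upstream of Axin2 had the lowest log2 fold enrichment of the 49 peaks and ranked 15875 in the list, but by Poisson p-value it ranked 7213 (−log10 p 10.9). The Wnt6 peak in Cyp27a1 ranked 9675 in the list and 5548 by Poisson p-value (−log10 p 12.9), and the peak in the 5′ UTR of Wnt5a ranked 9996 and 4980. The single Ror2 peak that did not pass ranked 8536 in the list and 4114 by Poisson p-value. The reverse was seen at the promoter peak of Lef1, which passed at rank 6725 and stood at 8190 by Poisson p-value.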
